A study of Homo sapiens with 6 samples.

Results

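The genes described here are the regulators and core factors of pre-mRNA splicing whose symbols start with HNRNP, SRSF, PCBP, SF3A, SF3B or PRPF. By this rule 51 of the 14884 genes measured were taken, and where a symbol had several probe sets the one brightest on average across the 6 arrays was kept. They comprised 25 HNRNP, 11 SRSF, 5 PCBP and 10 PRPF symbols, and the annotation used here paired no probe set with an SF3A or SF3B symbol. By RefSeq biotype 45 of the 51 were protein-coding genes, 5 were pseudogenes and 1 was a long noncoding RNA. The cells were of the human glioblastoma line U-87 MG, and their total RNA was measured on Affymetrix arrays. In the exposed group (3 arrays) dishes stood in a culture box within a Faraday chamber, where electromagnetic fields named RGFIELDS ran for 54 h, starting 24 h after seeding. Those fields were aimed at hsa-miRNA-381, the mutated alpha-kinase 2 gene, HSP70 and CHI3L1. In the unexposed group (3 arrays) dishes from the same randomization stood in a control box outside the chamber. Medium, serum, gas supply and temperature were shared by both groups, and each array was a separate biological replicate per the labels. Because the box differed along with the field, both are meant by "exposed", and their parts cannot be told apart. A single cell line was used, so the values hold for that line.

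Introns are removed from pre-mRNA by the spliceosome, a machine of small nuclear RNAs and proteins that is assembled anew on each intron. SR proteins (SRSF genes) bind exons and mostly favour the use of nearby splice sites. The hnRNPs coat nascent RNA and often oppose that use, and the poly(C)-binding proteins (PCBP genes) are KH-domain hnRNPs that bind cytosine-rich RNA and also act on mRNA stability and translation. PRPF genes encode spliceosome components, with PRPF8 at the catalytic centre. Many SR and hnRNP genes regulate their own transcripts through exons that direct the mRNA to decay. Several of them are raised in gliomas, where PTBP1, hnRNP A1 and hnRNP A2/B1 are known for shaping the splicing of metabolic and growth genes.

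In exposed cells 3 of the 51 genes fell and 0 rose. The 3 were PCBP3 and PCBP2 of the poly(C)-binding family and the spliceosome core gene PRPF8. The test was limma with Benjamini-Hochberg adjustment over all 14884 genes, with an adjusted p under 0.05 as the threshold and the log2 change taken as exposed minus unexposed. Over all genes measured 3.06% passed in either direction, 1.67% lower and 1.40% higher. At an unadjusted p under 0.05, 16 of the 51 were lower in exposed cells and 0 were higher, where 10.2% and 8.71% of all genes were. Log2 changes were negative for 43 of the 51 and for 49.3% of all genes, with a median of -0.13 over the 51 and 0.0029 over all genes. The 3 exposed values all lay below the 3 unexposed values for 18 of the 51 and all above them for 2, where 13.8% and 13.2% of all genes were so placed. These counts describe the set, and no test of the set as a whole was made.

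The mean log2 level over the 51 genes was 7.17, 7.27 and 7.29 on the unexposed arrays and 7.10, 7.05 and 7.12 on the exposed arrays. The groups did not overlap on this mean. It averaged 7.24 ± 0.06 without exposure and 7.09 ± 0.04 with it (SD over 3 arrays). Exposed replicate 2 stood lowest, and 25 of the 51 genes had their lowest value of all 6 arrays there. Unexposed replicate 2 held the highest value of 19 genes. Without exposed replicate 2 the median change was -0.11 with 40 of 51 negative. Without unexposed replicate 1 it was -0.19 with 45 negative, and without unexposed replicate 3 it was -0.11 with 38 negative. The adjusted calls needed nearly all arrays, and over all genes 0 to 325 passed with an array left out. PCBP3 passed without exposed replicate 3 (limma adjusted p = 0.0293) and missed the threshold when any other array was left out (0.0508 to 0.120). PCBP2 (0.0654 to 0.153) and PRPF8 (0.0650 to 0.129) missed it whichever of the 6 arrays was left out.

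**Figure D1:**
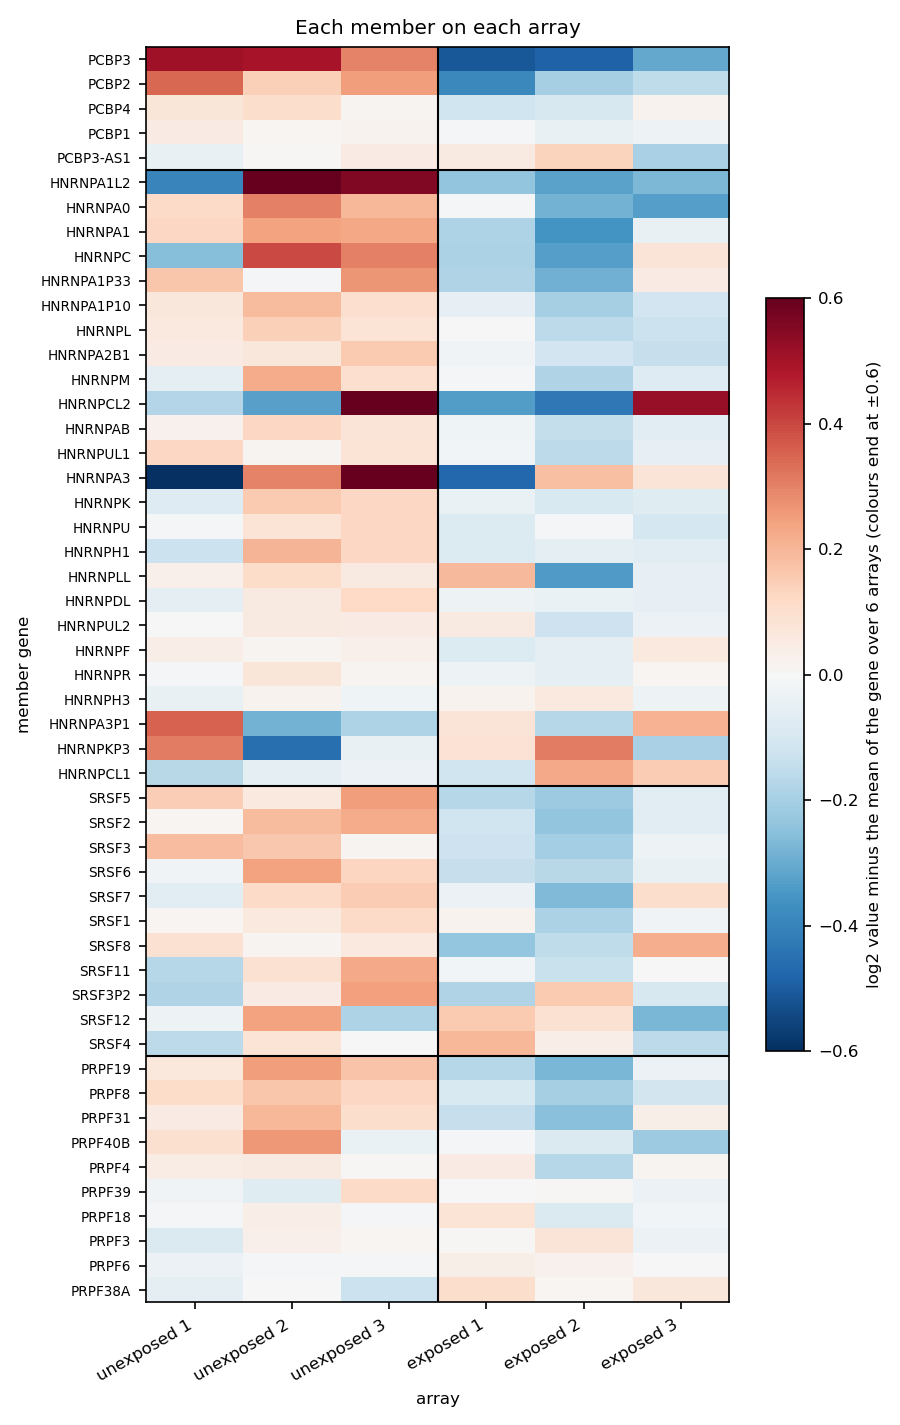
Each row is a gene and each column an array; colour gives the log2 value minus the gene's mean over the 6 arrays, in log2 units, red above and blue below, with lines between the families. PCBP3 and PCBP2 differ in colour between the groups on all arrays, 25 of the 51 genes have their lowest value on exposed replicate 2, and the dim genes HNRNPA3 and HNRNPCL2 vary widely within both groups.

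The promoter windows shown here are those of the 2 genes past the threshold for which RefSeq windows were at hand, PCBP2 and PRPF8, followed by HNRNPA0, the gene with the smallest p among those not called, and TRA2B, a related SR-like gene that fell. Each window runs from 250 bases before to 50 bases after the annotated gene start (RefSeq, GRCh38.p14) and is written 5′ to 3′ on the gene's strand. Capitals mark matches, on either strand, to the letters searched. For the GC box these were GGGCGG, which Sp1-type factors bind. The box bound by NF-Y was searched as CCAAT. For the site of ETS factors the letters were CCGGAAG. The site of E2F factors, known from cell cycle genes, was searched as TTTCCCGC and in a further form written as TTTGGCGC. The letters of the TATA box, found in few promoters, were TATAAA.
PCBP2, chr12:53451852-53452151, plus strand: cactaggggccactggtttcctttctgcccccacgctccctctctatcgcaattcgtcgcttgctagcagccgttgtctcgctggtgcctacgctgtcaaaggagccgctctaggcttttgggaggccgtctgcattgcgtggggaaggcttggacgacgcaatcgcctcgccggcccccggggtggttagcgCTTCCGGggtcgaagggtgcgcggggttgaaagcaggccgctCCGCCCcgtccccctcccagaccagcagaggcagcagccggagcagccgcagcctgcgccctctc
PRPF8, chr17:1684818-1685117, minus strand: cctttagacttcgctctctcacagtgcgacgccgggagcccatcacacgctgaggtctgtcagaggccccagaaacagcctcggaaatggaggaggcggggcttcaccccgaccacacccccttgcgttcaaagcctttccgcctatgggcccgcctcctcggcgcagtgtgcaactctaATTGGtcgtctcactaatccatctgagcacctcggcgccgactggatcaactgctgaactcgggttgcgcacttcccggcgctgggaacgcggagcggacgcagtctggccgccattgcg
HNRNPA0, chr5:137754314-137754613, minus strand: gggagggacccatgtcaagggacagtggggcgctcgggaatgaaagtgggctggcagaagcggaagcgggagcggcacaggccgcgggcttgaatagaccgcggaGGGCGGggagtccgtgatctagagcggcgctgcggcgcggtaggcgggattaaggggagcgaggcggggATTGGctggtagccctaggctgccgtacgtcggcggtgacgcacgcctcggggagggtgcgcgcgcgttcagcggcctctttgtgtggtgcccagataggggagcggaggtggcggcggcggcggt
TRA2B, chr3:185937965-185938264, minus strand: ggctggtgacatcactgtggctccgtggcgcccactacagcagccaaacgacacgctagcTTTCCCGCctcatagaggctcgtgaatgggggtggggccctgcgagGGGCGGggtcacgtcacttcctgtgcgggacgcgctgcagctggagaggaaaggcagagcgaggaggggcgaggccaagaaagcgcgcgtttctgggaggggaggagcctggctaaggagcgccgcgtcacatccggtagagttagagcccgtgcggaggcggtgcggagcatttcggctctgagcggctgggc

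The PCBP2 window held 1 GC box and 1 ETS match. In the PRPF8 window the single match was a CCAAT box, and the HNRNPA0 window had 1 GC box and 1 CCAAT box. For TRA2B there was 1 GC box and 1 E2F match. The windows of the splicing genes FUBP3, which also fell, and MBNL2, which rose, are not printed. FUBP3 had 3 GC boxes and 1 ETS match, and the first listed of 2 MBNL2 windows had 0 matches. Of the 51 genes 41 had a window (the first listed was taken for the 11 with several). A GC box was found in 26 of the 41 (63.4%) and in 60.5% of the 10749 measured genes with a window. A CCAAT box was found in 21 (51.2%, against 36.0%), an ETS match in 8 (19.5%, against 15.0%), a TATA box in 4 (9.76%, against 8.49%) and an E2F match in 1 (2.44%, against 3.07%). E2F and GC box letters can overlap, and each kind was counted on its own. These matches describe the letters and were not tested as binding sites.

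The poly(C)-binding family held the largest decrease of the set. PCBP3 (probe set 16923805), a KH-domain protein of chromosome 21, had log2 values of 6.39, 6.38 and 6.18 on the unexposed arrays and 5.37, 5.40 and 5.58 on the exposed arrays. The gap between the groups was wider than the range within either. Its mean fell from 6.32 ± 0.12 to 5.45 ± 0.11 (SD over 3 arrays), by 0.87 on the log2 scale (SE 0.10, 95% interval of the change -1.10 to -0.63, limma adjusted p = 0.0265), or 1.82-fold. In RefSeq the gene overlaps the long noncoding RNA PCBP3-AS1 and a locus without a gene name. PCBP3-AS1 was measured by its own probe set (16926598), and the rule also takes it. It had values of 6.60, 6.65 and 6.69 in unexposed and 6.70, 6.78 and 6.45 in exposed cells. Its groups overlapped, and its change was -0.0060 (interval -0.24 to 0.23). Whether the array separates the strands of this locus is not given in the sources used here.

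PCBP2 (probe set 16751827), which binds cytosine-rich RNA in nucleus and cytoplasm and also serves as an iron chaperone, stood at 6.32, 6.11 and 6.22 in unexposed and at 5.58, 5.77 and 5.82 in exposed cells. All exposed values lay below all unexposed values, with exposed replicate 1 the lowest. PCBP2 fell from 6.22 ± 0.10 to 5.72 ± 0.12 (SD over 3 arrays), which is a change of -0.49 (SE 0.10, 95% interval -0.73 to -0.26, limma adjusted p = 0.0456), or 1.41-fold. In RefSeq PCBP2 overlaps MAP3K12 and PCBP2-OT1, and PCBP2-OT1 was not among the genes measured. MAP3K12 changed by no more than its error (0.0042, interval -0.21 to 0.21). PCBP1, an intronless relative of PCBP2, had 10.73, 10.69 and 10.70 in unexposed and 10.67, 10.64 and 10.65 in exposed cells. Its groups did not overlap, but its change of -0.055 (interval -0.16 to 0.05) did not pass. PCBP4, a p53-induced member of the family, had 8.50, 8.54 and 8.45 against 8.31, 8.34 and 8.45, a change of -0.13 (interval -0.28 to 0.02). Exposed replicate 3 of PCBP4 reached the unexposed range. Whether the changes of PCBP3 and PCBP2 differ from those of PCBP1 and PCBP4 was not tested.

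**Figure D2:**
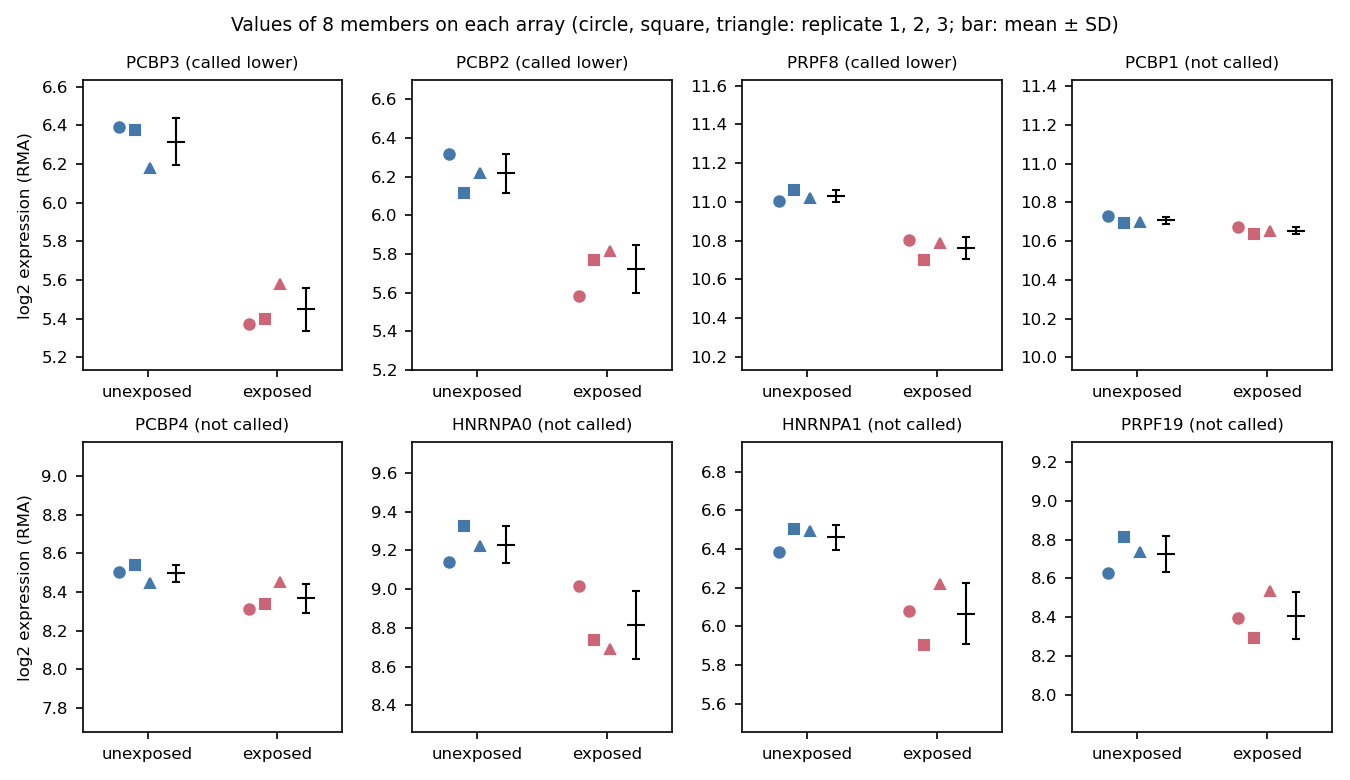
Log2 expression (RMA) of 8 genes on each array, unexposed in blue and exposed in red, with circles, squares and triangles for replicates 1 to 3 and black bars for mean ± SD; every panel spans the same number of log2 units. PCBP3, PCBP2 and PRPF8 fell, while PCBP4 has an exposed value within its unexposed range.

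Among the PRPF genes PRPF8 fell and the other 9 did not pass, where 3.06% of all genes passed in either direction. PRPF8 (probe set 16839473), the large U5 protein that holds the catalytic RNA of the spliceosome, had 11.004, 11.06 and 11.02 in unexposed and 10.80, 10.70 and 10.79 in exposed cells. The groups lay apart, with little spread within each. Its mean fell from 11.03 ± 0.03 to 10.76 ± 0.06 (SD over 3 arrays), that is, by 0.27 on the log2 scale (SE 0.05, 95% interval of the change -0.38 to -0.15, limma adjusted p = 0.0394), or 1.203-fold. PRPF19, the ubiquitin ligase that names the Prp19 complex, had 8.63, 8.82 and 8.74 against 8.40, 8.29 and 8.53. Its groups did not overlap, and its change of -0.32 (SE 0.08) did not pass (limma adjusted p = 0.0802). PRPF31, a U4/U6 protein mutated in retinitis pigmentosa, had 8.30, 8.45 and 8.36 against 8.11, 7.997 and 8.29, a change of -0.23 (limma adjusted p = 0.195). Exposed replicate 3 lay just under its lowest unexposed value.

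PRPF38A and PRPF6 were the genes of the set whose exposed values all lay above the unexposed ones. PRPF38A, a protein needed to activate the spliceosome, had 8.95, 9.01 and 8.88 in unexposed and 9.12, 9.03 and 9.08 in exposed cells, a change of 0.12 (interval -0.015 to 0.26). PRPF6, which bridges U5 with U4/U6, had 8.52, 8.55 and 8.55 against 8.60, 8.59 and 8.56, a change of 0.039 (interval -0.085 to 0.16). Both intervals included 0. PRPF40B, a U1-associated protein, had a change of -0.21 (interval -0.46 to 0.04), and the tri-snRNP proteins PRPF3 and PRPF4 had changes of 0.032 and -0.069. PRPF18, which acts in the second step of splicing, and PRPF39, a U1-associated protein, were at -0.013 and -0.016. The median over the 10 PRPF genes was -0.043.

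Of the 25 HNRNP genes 0 passed by limma and 7 had an unadjusted p under 0.05, all with negative changes. Over all genes 3.06% passed in either direction, and 10.2% were lower and 8.71% higher at an unadjusted p under 0.05. All exposed values lay below all unexposed values for 8 of the 25 and for 13.8% of all genes. HNRNPA0 (probe set 17000294), an AU-rich element binding protein that stabilizes cell cycle mRNAs, came closest. It had 9.14, 9.33 and 9.22 in unexposed and 9.02, 8.74 and 8.69 in exposed cells. Exposed replicate 1 stood near the lowest unexposed value and the other exposed values well below it. Its change was -0.41 (SE 0.10, interval -0.64 to -0.19, limma adjusted p = 0.0639). HNRNPA1, the abundant splicing repressor, had 6.38, 6.502 and 6.49 against 6.08, 5.90 and 6.22, without overlap. Its change was -0.39 (SE 0.10, limma adjusted p = 0.0794). HNRNPA1P10, a pseudogene named by a bright probe set (16869034), had 11.41, 11.53 and 11.44 against 11.29, 11.15 and 11.23, again without overlap. Its change was -0.24 (SE 0.06, limma adjusted p = 0.0700), and its dimmer probe set (16851840) had a change of -0.14 (interval -0.33 to 0.05). HNRNPA1, HNRNPA1L2, HNRNPA1P10 and HNRNPA1P33 are near copies in sequence, so which transcript each probe set read is uncertain.

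The other 4 HNRNP genes at an unadjusted p under 0.05 had smaller changes, with adjusted p from 0.137 to 0.203. They were HNRNPL, which binds CA repeats (-0.19), HNRNPA2B1, which sorts RNAs for transport (-0.18), HNRNPAB (-0.15) and HNRNPUL1 (-0.15). HNRNPL had 10.05, 10.13 and 10.07 in unexposed and 9.99, 9.83 and 9.86 in exposed cells, without overlap. HNRNPA2B1 had 7.85, 7.87 and 7.96 against 7.78, 7.69 and 7.67, also without overlap. HNRNPU, the scaffold attachment factor that organizes chromatin, was likewise separated at -0.13, with an unadjusted p of 0.0505. The splicing regulator HNRNPM was at -0.18 (interval -0.36 to 0.01), HNRNPK at -0.14 (interval -0.30 to 0.03) and HNRNPC, which guards against exonization of Alu elements, at -0.30 with a wide interval of -0.74 to 0.15. Changes near 0 were measured for the G-tract binders HNRNPF (-0.058) and HNRNPH3 (0.031), and for HNRNPR (-0.052), HNRNPUL2 (-0.069) and HNRNPDL (-0.077). HNRNPH1 and HNRNPLL were both at -0.13, each with overlapping groups. The median over the 25 genes was -0.14, with 21 negative.

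**Figure D3:**
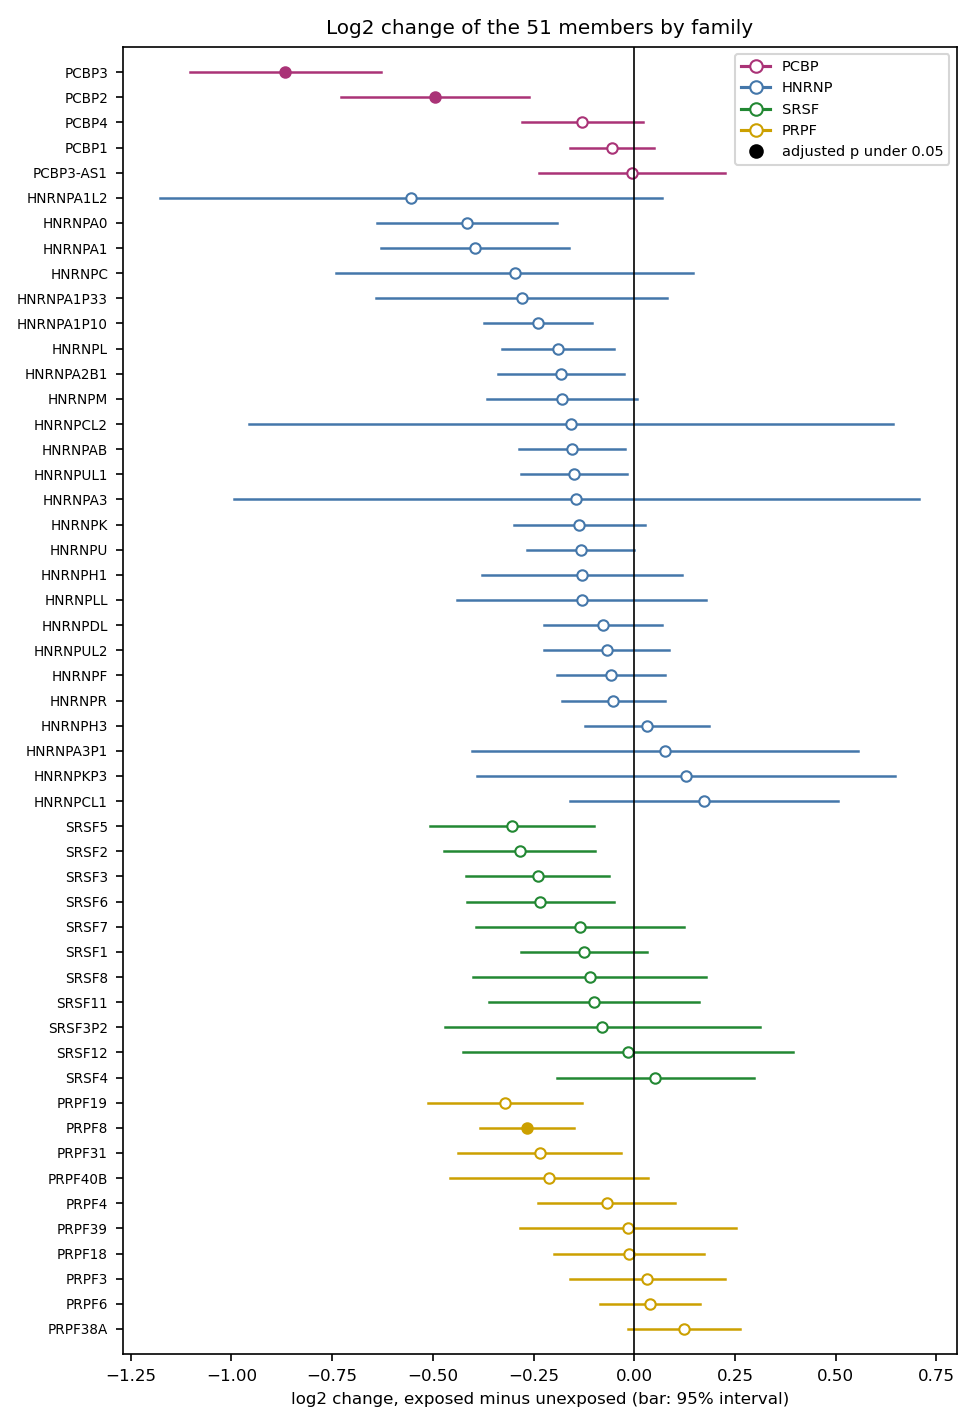
Points give the log2 change (exposed minus unexposed) of all 51 genes with 95% intervals, coloured by family and sorted by change within it; filled points have a limma adjusted p under 0.05. PCBP3, PCBP2 and PRPF8 are filled, 43 of the 51 points lie left of 0, and the widest intervals belong to dim genes such as HNRNPA3.

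No call was made by limma among the 11 SRSF genes (0 past the threshold, 4 lower at an unadjusted p under 0.05). The shares over all genes were 3.06% past the threshold in either direction and 10.2% lower at an unadjusted p under 0.05. The median change of the 11 SRSF genes was -0.12, with 10 of 11 negative. SRSF5 had 6.47, 6.38 and 6.57 in unexposed and 6.15, 6.10 and 6.26 in exposed cells. Its groups lay apart, with a change of -0.30 (SE 0.09, limma adjusted p = 0.111). SRSF2, the SR protein SC35 that stays in the nucleus, had 8.11, 8.29 and 8.32 against 7.98, 7.86 and 8.03. Its change was -0.28 (SE 0.08, limma adjusted p = 0.107), and exposed replicate 3 came within the unexposed replicates' own spread of unexposed replicate 1. SRSF3, which also acts in mRNA export, had 8.28, 8.26 and 8.11 against 7.97, 7.89 and 8.07, a change of -0.24 (limma adjusted p = 0.139). SRSF6 had 9.06, 9.32 and 9.21 against 8.94, 8.91 and 9.03, a change of -0.23 (limma adjusted p = 0.159). In these 4 genes every exposed value lay below every unexposed value, as was so for 13.8% of all genes.

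The remaining SRSF genes had overlapping groups. SRSF1, the founding SR protein and a known proto-oncogene, had 10.36, 10.41 and 10.47 against 10.37, 10.16 and 10.33. Its change was -0.12 (interval -0.28 to 0.03), with exposed replicate 2 the lowest and exposed replicate 1 within the unexposed range. SRSF7 was at -0.13, SRSF8, a retrogene copy of SRSF2, at -0.11 and SRSF11 at -0.10. SRSF4 had a positive change of 0.053 (interval -0.19 to 0.30), which was -0.013 without unexposed replicate 1 and -0.033 without exposed replicate 1.

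Of the 51 genes 9 were dim, with a mean below the median of all probe sets, and of these 0 passed by limma, adjusted or at an unadjusted p under 0.05. They were HNRNPA1L2, HNRNPA1P33, HNRNPA3, HNRNPA3P1, HNRNPCL1, HNRNPCL2, HNRNPKP3, SRSF3P2 and SRSF12. HNRNPA1L2 had the largest of their changes at -0.55, but its interval of -1.18 to 0.07 included 0. It had 3.41, 4.47 and 4.36 in unexposed and 3.57, 3.48 and 3.53 in exposed cells, so that unexposed replicate 1 stood with the exposed arrays. HNRNPA3, at 2.32, 3.39 and 3.78 against 2.62, 3.27 and 3.17, had an interval of -0.99 to 0.71, the widest of the set. SRSF12, the dimmest of the set at a mean of 1.94, had a change of -0.015 (interval -0.43 to 0.39), followed by HNRNPCL1 at 2.02 (change 0.17, interval -0.16 to 0.51) and SRSF3P2 at 2.33 (change -0.079, interval -0.47 to 0.31). The brightest were HNRNPA1P10 (11.3), HNRNPUL1 (11.2) and PRPF8 (10.9). Probes differ in how strongly they bind, so these levels do not rank the amounts of transcript. Over the 40 protein-coding genes that were not dim, 35 had negative changes, 3 fell and the median was -0.13. Over all genes, dim ones included, 3.06% passed in the same fit. With only probe sets above the median level fitted, 7.03% of all genes passed. HNRNPKP3, a pseudogene, had a change of 0.13 (interval -0.39 to 0.65).

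Genes outside the named families were taken from 8 lists of splicing factors, of which 103 of 146 entries were measured. Of the 103, 2 fell, 1 rose and 74 had negative changes, with a median of -0.084, where 3.06% of all genes passed. TRA2B, an SR-like activator of exon inclusion, had 8.67, 8.77 and 8.74 in unexposed and 8.34, 8.33 and 8.43 in exposed cells. The groups lay well apart, and it fell by 0.36 on the log2 scale (SE 0.06, limma adjusted p = 0.0336). FUBP3, a KH-domain protein of the far-upstream-element binding family, had 8.18, 8.29 and 8.30 against 7.77, 7.85 and 7.94 and fell by 0.41 (SE 0.07, limma adjusted p = 0.0336). MBNL2, a muscleblind regulator of developmental splicing, had 9.77, 9.65 and 9.79 against 10.33, 10.46 and 10.21. It rose by 0.59 (SE 0.08, interval 0.42 to 0.77, limma adjusted p = 0.0287), with all exposed values above all unexposed ones. These 3 calls held without exposed replicate 3 (limma adjusted p of 0.0431, 0.0431 and 0.0293) and were lost without any other array (0.0523 to 0.132).

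The list of other sequence-specific splicing regulators (19 of 40 measured) held 1 gene that fell, 1 that rose and 15 negative changes, with a median of -0.11. At an unadjusted p under 0.05, 6 of the 19 were lower and 1 was higher, where 10.2% and 8.71% of all genes were. Outside the rule for named genes and picked after their values were seen, MBNL1, the paralogue of MBNL2, had a change of -0.29 (limma adjusted p = 0.0510). The neuronal PTBP2 was at -0.50 (0.0509 by the same test) and its ubiquitous paralogue PTBP1, a repressor of neural exons, at -0.20 (limma adjusted p = 0.106). MBNL1 had 10.84, 11.03 and 10.98 in unexposed and 10.63, 10.65 and 10.71 in exposed cells, opposite in direction to MBNL2. Whether the changes of the 2 paralogues differ was not tested.

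Among 15 measured SR-related genes 1 fell (TRA2B), 14 did not pass and 11 had negative changes, with a median of -0.10. At an unadjusted p under 0.05, 7 of the 15 were lower and 0 higher, where 10.2% and 8.71% of all genes were. The U1 and Sm list, whose Sm proteins form a ring on spliceosomal RNAs, had 13 measured genes, of which 0 passed by limma, 1 was lower at an unadjusted p under 0.05 and 12 were negative (median -0.098). Among 13 U2 and branch site genes 0 passed by limma, while 5 were lower and 2 higher at an unadjusted p under 0.05 (median -0.075). The U5 and tri-snRNP list (12 of 19 measured) had 0 past limma's threshold, 1 lower and 1 higher at an unadjusted p under 0.05 and a median of -0.070. In the Prp19 and catalytic list (14 of 17) 0 passed and 2 were lower at an unadjusted p under 0.05, with a median of -0.051. Kinases and importers of SR proteins (11 measured) had 0 past the threshold and 1 lower unadjusted, with a median of -0.064. Exon junction and nonsense-mediated decay genes (6 of 16) had 0 and 1 likewise, with a median of -0.076. All 8 list medians were below that of all genes, and all lists share the same 6 arrays.

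**Figure D4:**
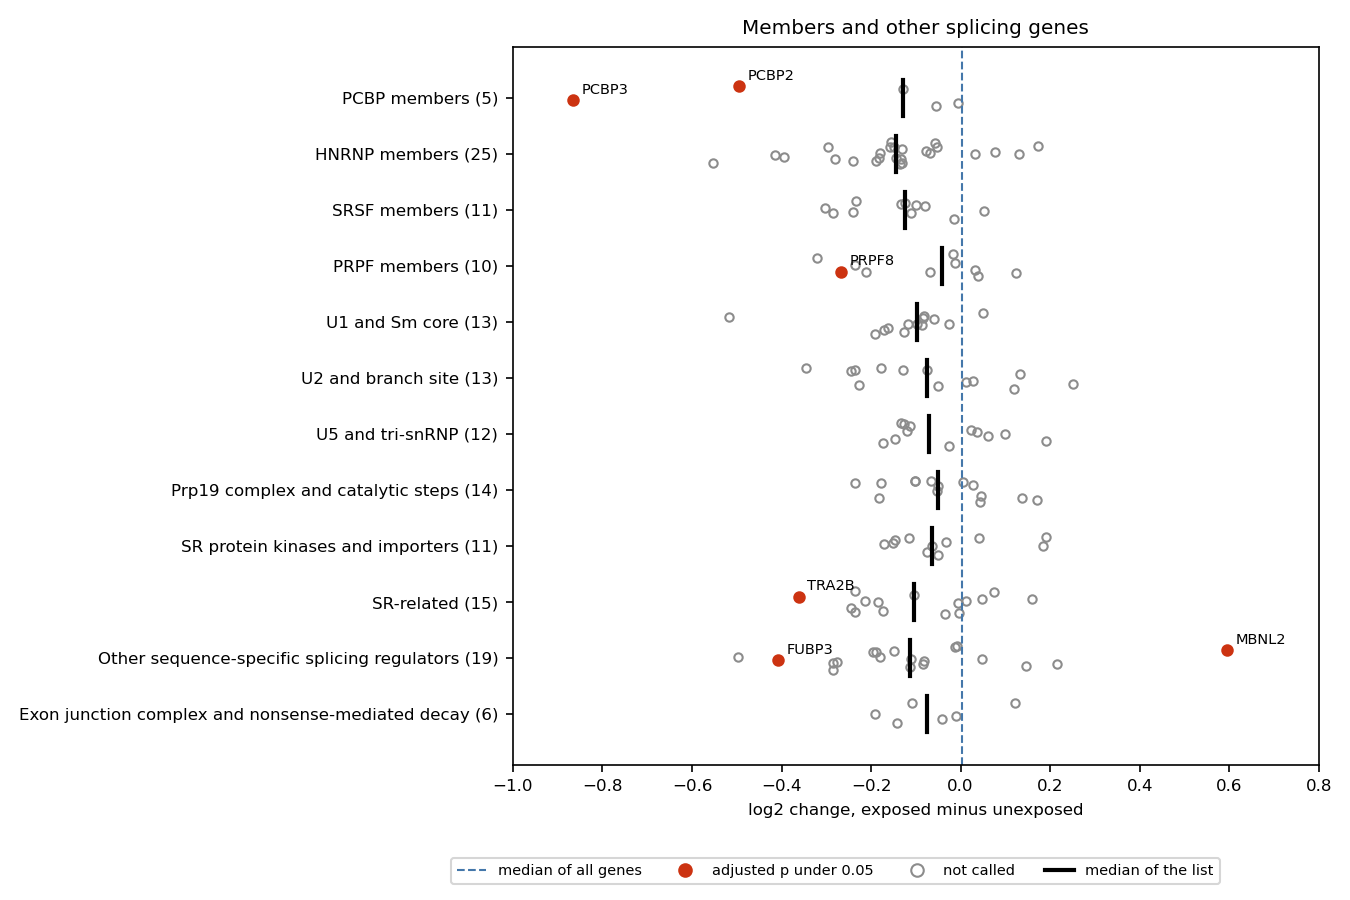
Each point is a gene's log2 change (exposed minus unexposed) in the 4 families described here and the 8 further lists, with the number measured in brackets; black bars are list medians, the dashed line is the median of all genes, and filled red points have a limma adjusted p under 0.05. The filled points are PCBP3, PCBP2, PRPF8, TRA2B and FUBP3 below 0 and MBNL2 above 0.

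The 6 arrays had medians of 3.96 to 3.99 (log2), and correlations over all probe sets were 0.985 to 0.988 within groups and 0.982 to 0.987 between them. Of 31 markers of glioma and other cell types 22 were measured, of which 0 passed by limma and 3 (FN1, GFAP and S100B) had an unadjusted p under 0.05. FN1 (-0.17) and S100B (-0.42) were lower in exposed cells and GFAP (0.35) was higher. CHI3L1, at which the fields were aimed, is among the glioblastoma and astrocyte markers and had a change of 0.14 (interval -0.05 to 0.33). The 9 glioblastoma and astrocyte markers averaged 7.18 to 7.27 on the exposed and 7.21 to 7.27 on the unexposed arrays, with FN1 (mean 12.03), VIM (10.5), CD44 (8.93) and GFAP (5.04) above the array medians and S100B (3.47) and AQP4 (2.95) below them. The 3 microglia and leukocyte markers averaged 6.41 to 6.49 and 6.16 to 6.43, with the lysosomal gene CD68 bright (12.3) and CX3CR1 (3.68) and CD14 (3.15) below the medians. The 3 endothelial markers averaged 4.08 to 4.23 and 3.80 to 4.16, with CLDN5 at 5.49, VWF at 3.66 and PECAM1 at 3.15. Those of the oligodendrocyte lineage (3 measured, SOX10 at 5.26) averaged 4.67 to 4.85 and 4.77 to 4.93, those of neurons (2) 4.73 to 4.80 and 4.55 to 4.77, and those of epithelium (2) 4.44 to 4.54 and 4.32 to 4.53. Markers of other cell types were thus not all dim, and their part in the results was not tested.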

How the data were processed

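The authors deposited log2 expression values, 1 per probe set and array, made with RMA (background correction, normalization between arrays, summary of probes). Per the submitters' processing notes, Affymetrix Expression Console 3.0 and Transcriptome Analysis Console 3.0 were used, with settings not given in the sources used here. RMA makes array distributions alike, so a change in total RNA would not show. There are no detection calls in the table. Precision is limited by how few arrays there are. Of 53617 probe sets 16098 carried 1 gene symbol in the platform annotation, and the rest were unnamed here.

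Groups came from sample titles (the description field of the exposed samples reads both exposed and control). R 4.3.3 and limma 3.58.1 were used to fit all probe sets, with moderated two-sided tests (lmFit, and eBayes with its trend option) and no covariate or filter. Benjamini-Hochberg adjustment ran over the 14884 genes, 1 probe set each, at a threshold of 0.05. The procedure was tested on simulated data. Symbols were matched to RefSeq by gene identifier for 51 of 51 genes. Figures were drawn with matplotlib 3.10.9.

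The genes and lists were chosen with earlier results of these data known. The rule named all genes past the threshold, in each family the 2 with the smallest p in each direction, the 3 brightest and 3 dimmest, and close copies of these; others were named after their values were seen. The reported fit did not take the replicate numbers as pairs, and with them as a block 0 genes passed. Same-numbered arrays of the groups did not deviate together (correlations of -0.03 to 0.01 over all probe sets). Dim probe sets entered these correlations and could hide a shared deviation, so they do not settle whether the arrays were paired. Alternatives were a block for the replicate number, no trend, a filter on dim probe sets, averaging the probe sets of each gene, adjustment over probe sets, quantile normalization again, centring on 49 ribosomal protein genes, and leaving out each array.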

Additional observations from a re-analysis of the deposited data

How the results depend on the processing

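With all 6 arrays 3 genes of the set fell and 0 rose, and of the other splicing genes 2 fell and 1 rose. With each array left out in turn these counts ranged from 0 to 1, stayed at 0, and ranged from 0 to 2 and from 0 to 1. In those fits 0 to 325 of all genes passed, and the median change of the 51 genes ranged from -0.19 to -0.11. With the replicate block, and without a mean-variance trend, 0 genes of the set and 0 other splicing genes passed, as did 0 of all genes. In those fits 13 and 10 of the 51 had an unadjusted p under 0.05, in either direction. So had 2286 and 2220 of the 14884 genes measured. With the arrays centred on ribosomal protein genes 1 gene of the set (PCBP3) fell and 0 others fell or rose, where 0.564% of all genes passed in either direction. Adjusted over all probe sets 1 gene of the set (PCBP3) fell and 0 others fell, with MBNL2 still higher, where 1.09% of all genes passed in either direction. More genes passed where fewer probe sets entered the fit or the adjustment. Of the set 7 fell when probe sets were averaged per gene, where 7.88% of all genes passed in either direction (3.06% in the reported fit). With only the representative probe sets fitted, a setting chosen after seeing the data, 8 fell and 8.12% of all genes passed in either direction (688 lower, 521 higher). In each of these settings 8 of the other splicing genes fell. With probe sets above the median level 42 genes of the set and 98 others were left. Of these 4 of the set fell (HNRNPA0 added) and 6 others. Over all genes in that fit 432 were lower and 321 higher, 7.03% in either direction. With quantile normalization again 4 of the set fell (HNRNPA1P10 added) and 4 others, with 3.5% of all genes passing in either direction (264 lower, 257 higher). No gene of the set rose in any of these settings. The log2 change of PCBP3 lay between -0.94 and -0.83 over the 14 alternatives and passed in 7, that of PCBP2 between -0.55 and -0.42 and that of PRPF8 between -0.29 and -0.23, each passing in 4. Changes that were near 0 turned sign in places: SRSF12 to 0.0067 with quantile normalization again, to 0.10 without unexposed replicate 2 and to 0.12 without exposed replicate 3, SRSF4 to -0.013 without unexposed replicate 1 and -0.033 without exposed replicate 1 (up to 0.14 without exposed replicate 3), HNRNPKP3 to -0.065 without unexposed replicate 2 (up to 0.31 without unexposed replicate 1), and SRSF3P2 to 0.025 without unexposed replicate 3 (down to -0.19 without unexposed replicate 1). The causes were not tested. Leaving out dim genes, pseudogenes and the antisense RNA, also chosen after seeing the data, kept the median at -0.13.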
